A study of Mus musculus with 6 samples.

Results

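Claudins and the proteins that anchor them at the tight junction were followed in bladders of mouse embryos at embryonic day 18.5. The set held 34 genes, 18 claudins and 16 partners, out of 18193 genes that had a probe set on the array. Members were taken by gene symbol, and each was read from its brightest probe set, the one with the highest mean over the 6 arrays. The arrays came from 3 Get1 -/- (null) and 3 Get1 +/- (heterozygous) bladders, one array per sample. Get1 is another name of Grhl3, a gene of the grainyhead family that acts in the outer layers of epithelia. Heterozygous bladders were the controls and carry 1 mutant allele, so no group had 2 intact copies of the gene. The design text speaks of 3 mice per genotype. The labels do not say how the allele was made, and nothing in them says that the samples came from separate litters, so p-values measure the spread between these samples only.

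Tight junctions close the gap between neighbouring epithelial or endothelial cells at their apical border. Claudins are the transmembrane strands of the junction: some seal it, and others, such as the products of Cldn2, Cldn10 and Cldn15, form selective channels for ions and water. Occludin and the other MARVEL proteins and the JAM adhesion proteins join them in the membrane, while ZO proteins, cingulins, multi-PDZ proteins and polarity proteins hold the complex to the actin cytoskeleton and place it below the apical surface. In the bladder the urothelium, above all its umbrella cells, keeps urine out of the tissue through these junctions and through uroplakin plaques.

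The tissue label was set against markers before the members were read. Smooth muscle genes were bright on all arrays, with Acta2 signal between 30730 and 39240, and the urothelial Upk1b lay between 4675 and 9729. Of 6 genes of the urothelial surface, 3 were lower in the null group over all genes tested (limma, adjusted p threshold 0.05). Of 13 intestinal genes 12 were tested, and 11 were higher. Of these 12, 9 had heterozygous means below the filter on dim genes (described below) and passed it through their null arrays, so they had to differ and the count is a description. The other 3, Vil1, Lgals4 and Hnf4a, had both means above it, and 3 were higher. The mean of the 13 lay above the heterozygous mean by 4.02, 4.76 and 4.93 on the log2 scale on null arrays 1 to 3, and the heterozygous arrays lay within 0.22 of it. Intestinal transcripts were thus high on all 3 null arrays. Whether they came from changed bladder tissue or from carried-over tissue was not tested. In a bulk tissue, fewer cells of a type and less RNA per cell cannot be told apart. Grhl3 itself read 76.6, 21.5 and 119.7 in null bladders against 143.3, 132.9 and 125.6 in heterozygous ones, a log2 difference of −0.95 (SE 0.44, limma adjusted p = 0.655). The sources used here do not say whether its probe set lies in a part of the gene that the mutant allele changes.

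Of the 34 members, 30 passed a filter that left out the 30% of genes with the lowest mean level, and the comparison ran over 12735 genes. Across them 57 genes (0.448%) were higher and 8 (0.0628%) lower in the null group at a limma adjusted p threshold of 0.05. Among the 14 claudins tested 1 was higher, Cldn2, and 0 were lower. Among the 16 partners tested 0 were higher and 0 lower. By limma's unadjusted p under 0.05 the claudins had 4 higher and 2 lower, and the partners 2 higher and 0 lower. These made 20.0% of the 30 members higher and 6.67% lower, against 3.63% and 4.30% of all genes tested. Cldn2 and Cldn18 passed the filter through their null arrays, since their heterozygous means lay below it, so their presence among the tested genes already required a difference. Of the tested members 7 of 14 claudins and 9 of 16 partners had a difference above 0, beside 45.1% of all genes tested. The median log2 difference was −0.04 for the claudins and 0.11 for the partners, beside −0.03 over all genes tested.

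**Figure D1:**
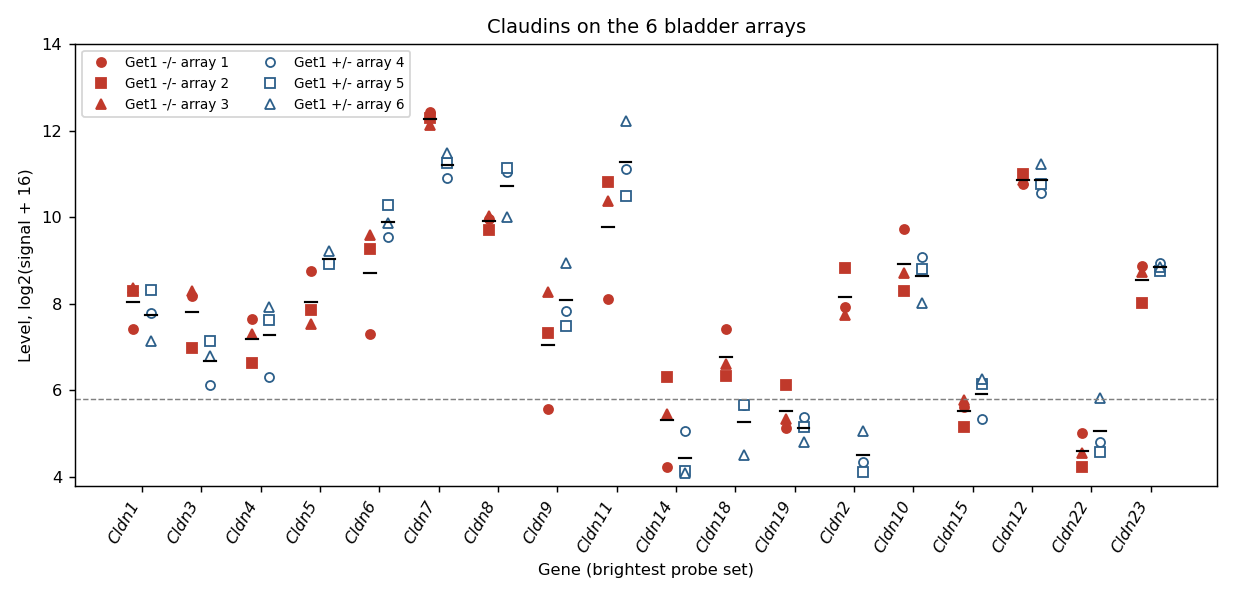
Levels of the 18 claudins as log2(signal + 16) on each array, with null arrays as filled red symbols, heterozygous arrays as open blue symbols and black bars at the group means (n = 3 each). The dashed line is the dim filter at 5.80, and Cldn2 lies below it on the 3 heterozygous arrays and above it on the 3 null arrays.

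Cldn2, the cation and water channel of leaky epithelia such as intestinal crypts and renal proximal tubule, was the member that rose. Its signal read 226, 439 and 198 in null bladders against 4.37, 1.46 and 17.2 in heterozygous ones, given here and below in the order of null arrays 1 to 3 and heterozygous arrays 4 to 6. Each null array lay far above each heterozygous array. Values were taken as log2(signal + 16), on which the lowest possible level is 4. Null bladders had a mean level of 8.16 ± 0.58 and heterozygous ones 4.51 ± 0.48 (SD, n = 3 each), a difference of 3.65 (SE 0.37, limma adjusted p = 0.00361) or 12.6-fold on this scale. Because the heterozygous level sat at the bottom of the scale, the size depended on the added offset: it was 5.45 with an offset of 1 and 2.24 with 64. Cldn2 had a second probe set, which stayed dim on all arrays and did not follow the first. It read 23.8, 2.56 and 20.8 in null bladders against 25.0, 33.5 and 32.9 in heterozygous ones. Its null values thus lay wholly below the heterozygous ones, with a difference of −0.62. With both averaged the difference was 1.52 (limma adjusted p = 0.0208). Cldn2 passed the test in each of the 15 alternative fits in which it was tested. On the same 3 null arrays intestinal markers were high. Hnf4a, which encodes a nuclear receptor of intestine and liver and was above the filter in both groups, had a difference of 4.56 (limma adjusted p = 8.65e-04). Cdx2, an intestinal transcription factor, read 393, 603 and 284 against 27.5, 3.09 and 3.70, and like Cldn2 it passed the filter through its null arrays. Their part in the Cldn2 signal was not tested.

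The other channel-forming claudins did not pass the test. Cldn15, a channel claudin of the small intestine, was below the filter, with signals from 19.9 to 60.7 over the 6 arrays and 33.2, 19.9 and 38.9 on the null arrays. It was thus dim on the arrays where Cldn2 was bright. Cldn10, a channel claudin of kidney and glands, read 836, 298 and 406 in null bladders against 528, 435 and 244 in heterozygous ones, and the groups overlapped. Its difference was 0.28 (95% interval −0.71 to 1.26, limma adjusted p = 0.934). Its probe set can also match other transcripts by its name.

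Among the claudins that seal junctions, Cldn7 is found in many simple epithelia and also lies along the lateral membrane. Its signal read 5478, 4967 and 4446 in null bladders against 1897, 2408 and 2853 in heterozygous ones. The groups did not overlap, and the lowest null array stood above the highest heterozygous array. The level was 12.28 ± 0.15 against 11.21 ± 0.29 (SD, n = 3 each), a difference of 1.07 or 2.09-fold (SE 0.23), which did not pass over all genes (limma adjusted p = 0.199). Over the 16 alternative fits the difference lay between 0.91 and 1.204 and the adjusted p between 0.0606 and 0.488.

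Cldn18, which in its gastric and pulmonary forms seals stomach and alveolar epithelium, read 155, 64.4 and 80.9 in null bladders against 34.7, 34.3 and 6.94 in heterozygous ones. All values were low, and the null ones lay above the heterozygous ones without overlap. The difference was 1.504 (SE 0.40, limma adjusted p = 0.327), and it ranged from 0.86 with an offset of 64 to 2.13 with an offset of 1. Its second probe set stayed below the filter level with a difference of 0.36. Of 6 stomach markers 3 were tested and 0 passed, while the mean of the 6 was higher by 0.95, 1.09 and 0.96 on null arrays 1 to 3. The trefoil genes Tff1 and Tff2 had differences of 1.87 and 1.29 and Sox2, a transcription factor of foregut and other tissues, one of −0.66 (limma adjusted p = 0.316, 0.332 and 0.556), each with groups that did not overlap. Tff1 passed the filter through its null arrays. Muc5ac, Gkn1 and Gkn2 were below the filter, and of these Gkn2 read 66.9, 94.8 and 62.3 against 0.60, 23.6 and 3.59. The part of stomach-type RNA in the Cldn18 signal was not tested.

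Cldn3 and Cldn4, sealing claudins of glandular and intestinal epithelium, are direct neighbours in the RefSeq gene order. Cldn3 read 276, 110 and 299 in null bladders against 53.7, 125 and 94.9 in heterozygous ones, so null array 2 lay inside the heterozygous range. Its difference was 1.14 (SE 0.42, limma adjusted p = 0.545). All 4 probe sets of Cldn3 were higher in the null mean, by 1.01 to 1.37, and 2 of them had groups that did not overlap. The dimmer of these 2 had a mean level below the dim filter. The brighter one can, by its name, also match other transcripts. Cldn4 read 186, 82.7 and 142 in null bladders against 63.1, 182 and 225 in heterozygous ones, with a difference of −0.09 (95% interval −1.14 to 0.97). These intervals are wide, so the neighbours cannot be said to differ in response.

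Cldn5 and Cldn8 had an unadjusted limma p under 0.05 in the lower direction. Cldn5, the principal claudin of endothelium, read 418, 215 and 171 in null bladders against 477, 469 and 581 in heterozygous ones. The groups did not overlap, with null array 1 close to the heterozygous range. The difference was −0.98 (SE 0.33, limma adjusted p = 0.495), and it was −0.72 without null array 3 and −1.33 without null array 1. Of 10 endothelial markers 0 passed, their median difference was −0.21, and the mean of the list lay below the heterozygous mean by values of −0.28, −0.14 and −0.20 on null arrays 1 to 3. Of these markers 7 had a lower and 3 a higher null mean. Egfl7, which had the smallest p, had a difference of −0.75 (limma adjusted p = 0.510), with null arrays wholly below heterozygous ones. Pecam1 had a difference of −0.83, and Cdh5, with null arrays wholly above, one of 0.41 (limma adjusted p = 0.590 and 0.722). The part of vessel content in the Cldn5 values was not tested.

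Cldn8, a sealing claudin of the distal nephron and of urothelium, read 983, 825 and 1029 in null bladders against 2110, 2225 and 1015 in heterozygous ones. Heterozygous arrays 4 and 5 stood well above the null arrays, and heterozygous array 6 lay among them. The difference was −0.83 (SE 0.33, limma adjusted p = 0.583), and −1.19 without heterozygous array 6 (adjusted p = 0.119).

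The neighbouring genes Cldn6 and Cldn9, claudins of embryonic epithelia, and Cldn11, the claudin of myelin and Sertoli cells, varied most within the null group. Their null SDs of 1.24, 1.37 and 1.46 on the log2 scale were the only ones above 1 among the 30 tested members, and 0 members had such an SD among heterozygous arrays. Null array 1 had the lowest value of each. Cldn6 had a signal of 141 there, against 597 and 756 on the other null arrays, with 730, 1222 and 919 in heterozygous bladders. Cldn9 had 31.3 on null array 1, 145 and 291 on the other null arrays, with 211, 165 and 478 in heterozygous bladders. Cldn11 had 259 on null array 1, 1796 and 1320 on the other null arrays, with 2213, 1426 and 4741 in heterozygous bladders. Their differences of −1.18, −1.04 and −1.51 had limma adjusted p of 0.677, 0.780 and 0.678. Without null array 1 they were −0.47, −0.30 and −0.67, with a limma adjusted p of 0.9996 each. Null array 1 is also the only array whose title has 1 as its first number, and the sources used here do not say what that number means.

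The remaining claudins showed no separation. Cldn1, the claudin of stratified epithelium and skin barrier, had a difference of 0.29 (95% interval −0.59 to 1.16). Cldn12 and Cldn23, whose place in sealing is less settled, had differences of 0.01 and −0.31 (95% intervals −0.55 to 0.58 and −0.93 to 0.31). The signal of Cldn12 lay between 1487 and 2396 on all 6 arrays, close together in both genotypes. Cldn14, Cldn19 and Cldn22 were below the filter with highest signals of 63.2, 53.9 and 40.7, and were not tested.

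For the 4 claudins whose groups did not overlap, the DNA upstream of their starts is shown with the letters of motifs that bear on this tissue. They were picked by these same data, and of them only Cldn2 passed the limma test. Each line gives the 250 bases before a transcription start from RefSeq (GRCm38.p6), 5′ to 3′ on the strand of the gene, in lower case with motif matches in capitals. Cldn2 lies at chrX:139800558-139800807 on the + strand, Cldn7 at chr11:69965171-69965420 on the + strand, Cldn18 at chr9:99710064-99710313 on the - strand and Cldn5 at chr16:18776597-18776846 on the + strand. Cldn7 and Cldn18 each have a second listed start, and the one shown is that with a match.
Cldn2: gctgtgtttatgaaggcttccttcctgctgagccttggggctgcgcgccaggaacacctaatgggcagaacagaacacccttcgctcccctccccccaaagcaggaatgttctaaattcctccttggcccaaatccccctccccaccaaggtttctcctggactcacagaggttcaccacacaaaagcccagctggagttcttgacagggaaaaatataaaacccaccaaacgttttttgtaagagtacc
Cldn7: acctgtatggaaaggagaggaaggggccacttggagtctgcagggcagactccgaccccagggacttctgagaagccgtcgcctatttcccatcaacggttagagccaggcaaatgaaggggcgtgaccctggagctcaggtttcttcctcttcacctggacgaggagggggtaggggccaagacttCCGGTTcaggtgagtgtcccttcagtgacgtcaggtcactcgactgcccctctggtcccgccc
Cldn18: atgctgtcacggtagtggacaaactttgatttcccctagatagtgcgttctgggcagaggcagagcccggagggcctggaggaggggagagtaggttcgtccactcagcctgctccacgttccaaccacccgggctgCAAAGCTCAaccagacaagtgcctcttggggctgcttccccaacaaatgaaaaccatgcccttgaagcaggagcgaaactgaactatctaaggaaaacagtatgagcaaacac
Cldn5: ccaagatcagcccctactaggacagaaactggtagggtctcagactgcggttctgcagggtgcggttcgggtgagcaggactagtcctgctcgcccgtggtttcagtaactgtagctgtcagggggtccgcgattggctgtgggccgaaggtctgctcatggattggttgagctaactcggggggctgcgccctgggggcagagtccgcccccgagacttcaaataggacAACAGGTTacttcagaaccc

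Motifs were searched on both strands over all listed starts of 27 members and of 27025 genes. A gene counted when any of its starts had a match, so genes with more starts had more room for one. The shares below were not matched for the number of starts. AACCGG, part of the palindrome that grainyhead factors bind, was found upstream of 4 of 27 members (Cldn7, Cldn14, Cgn and Ocln), 14.8% against 6.40% of all genes. In Cldn7 it lies 63 to 58 bases before the start, read as its reverse complement. The looser AACNNGTT, which overlaps AACCGG where the whole palindrome is present, was found in 2 of 27 members (Cldn5 and Cgn), 7.41% against 4.11% of all genes, and in Cldn5 it lies 20 to 13 bases before the start. CAAAGNNCA, a form of the site of HNF4 factors of gut and liver, was found in 3 of 27 members (Cldn18, Cldn10 and Tjp3), 11.1% against 6.29% of all genes. CNATAAA, a form of the site of intestinal CDX factors, was found in 0 of 27 members and in 11.3% of all genes. The window upstream of Cldn2 held none of these letters. A match is a run of letters and not a measured binding site.

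**Figure D2:**
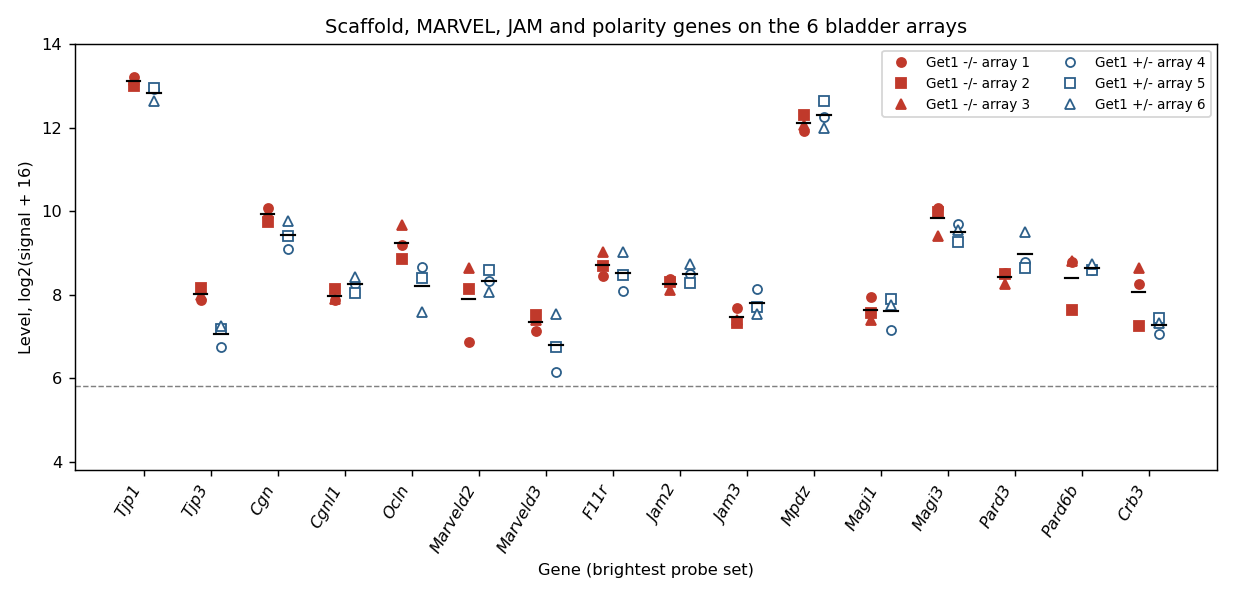
Levels of the 16 membrane partners, scaffolds and polarity genes as log2(signal + 16) on each array, with the same symbols, group bars (n = 3 each) and dim filter line at 5.80 as for the claudins. All 16 lie above the line, and the null arrays stand clear of the heterozygous arrays for Tjp1, Tjp3, Ocln and, in the lower direction, Pard3.

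Tjp3 encodes ZO-3, a ZO scaffold of epithelia. Its signal read 218, 269 and 237 in null bladders against 91.0, 128 and 137 in heterozygous ones. Null and heterozygous arrays stood apart, with little spread within either group. The difference was 0.95 or 1.93-fold (SE 0.23, limma adjusted p = 0.264), and it lay between 0.75 and 1.07 in the 15 alternative fits that tested it, none of which called it. Tjp1, which encodes the widely expressed ZO-1, read 9418, 8170 and 9017 in null bladders against 7686, 7840 and 6376 in heterozygous ones. These groups also stood apart, but the difference was small at 0.28 or 1.22-fold (SE 0.21, limma adjusted p = 0.805). Cgn, which encodes the epithelial plaque protein cingulin, had signals of 1060, 842 and 979 against 525, 656 and 857, overlapping by 1 array on each side, with a difference of 0.51 (limma adjusted p = 0.679). Its relative Cgnl1 had a difference of −0.28 (95% interval −0.77 to 0.22).

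Among the MARVEL proteins, Ocln, which encodes occludin, read 571, 445 and 795 in null bladders against 386, 320 and 177 in heterozygous ones. The groups did not overlap. The difference was 1.02 or 2.03-fold (SE 0.34, limma adjusted p = 0.482), but a second Ocln probe set, also above the filter level, had a difference of −0.01, and with both averaged it was 0.51. Marveld2, which encodes tricellulin at the corners where 3 cells meet, had its lowest signal of 101 on null array 1, and 264 and 384 on the other null arrays, against 304, 368 and 249 in heterozygous bladders. Its difference was −0.44, and 0.07 without null array 1. Marveld3 had a difference of 0.54 (limma adjusted p = 0.785).

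Of the 3 JAM adhesion genes 0 passed the limma test, also at an unadjusted p under 0.05. F11r, which encodes JAM-A of epithelia and platelets, had a difference of 0.19 (95% interval −0.50 to 0.88), and Jam3, of endothelium and other cells, one of −0.33 (−0.89 to 0.23). Jam2, an endothelial JAM, had a difference of −0.23 (−0.74 to 0.27) by its brightest probe set. Of its other 4 probe sets, 2 had null values wholly below the heterozygous ones, by −0.39 and −0.96. The one at −0.96 lay below the level of the dim filter in both groups. The remaining 2 were also below that level, with differences of 0.28 and 0.25 and overlapping groups.

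The multi-PDZ scaffolds Mpdz, Magi1 and Magi3 had differences of −0.20, 0.03 and 0.32 (limma adjusted p from 0.831 to 0.993). Mpdz, which encodes MUPP1, read 3842, 5064 and 4275 in null bladders against 4873, 6376 and 4042 in heterozygous ones, and the groups overlapped. Of the polarity genes, Pard3 encodes the PAR3 polarity scaffold. Its signals read 348, 342 and 291 in null bladders against 424, 380 and 711 in heterozygous ones. Every null array lay below every heterozygous array, with heterozygous array 6 far above the rest, and the difference was −0.55 (SE 0.28, limma adjusted p = 0.697), or −0.29 without that array. Crb3, the epithelial Crumbs protein of the apical membrane, had signals of 288, 137 and 385 against 116, 157 and 145. Null arrays 1 and 3 were high and null array 2 lay within the heterozygous range, which gave a difference of 0.78 (limma adjusted p = 0.655). Pard6b had a difference of −0.24 (95% interval −1.02 to 0.55), with null array 2 at 181 and the other 5 arrays between 369 and 432.

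**Figure D3:**
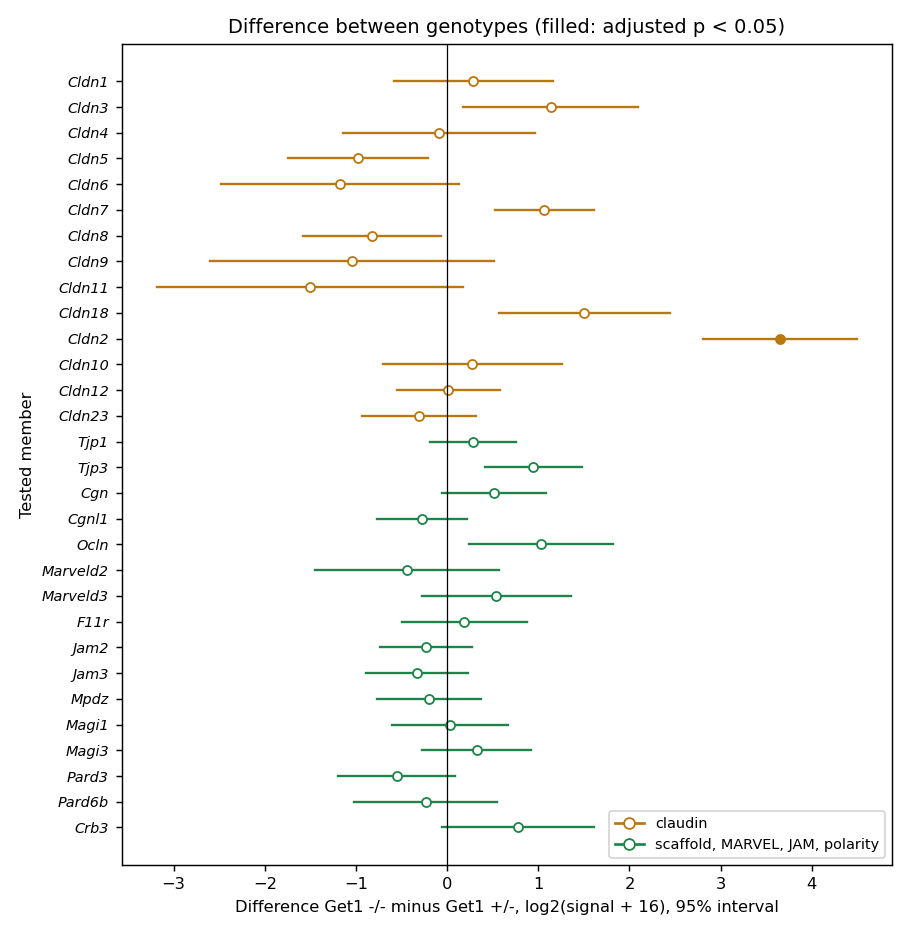
Null minus heterozygous difference on the log2(signal + 16) scale for the 30 tested members, with limma 95% intervals (not adjusted for the number of genes), claudins in ochre and partners in green. Cldn2 at 3.65 is the filled point and the only one with an adjusted p under 0.05, and the others lie between −1.51 and 1.504.

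By non-overlap of the 3 null and 3 heterozygous arrays, 3 claudins (Cldn2, Cldn7 and Cldn18) and 3 partners (Tjp1, Tjp3 and Ocln) were higher, and 1 claudin (Cldn5) and 1 partner (Pard3) lower. That is 20.0% of the 30 tested members in the higher direction and 6.67% in the lower, beside 6.07% and 7.36% of all genes tested. Since Cldn2 and Cldn18 had to differ to pass the filter, the higher share was also taken over genes with both group means above the filter, a choice made after the data were seen: it was 4 of 28 members (14.3%), beside 5.57% of all such genes. For each of the 8 genes with separate groups the exact two-sided permutation p was 0.1, the smallest that 3 against 3 arrays allow. Separate groups always give this value, so it adds nothing to the non-overlap. By array, 7, 6 and 8 of the 14 claudins lay above their heterozygous mean on null arrays 1 to 3, and 9, 8 and 9 of the 16 partners. Claudins above and below their heterozygous mean were thus mixed on each null array.

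General epithelial genes were measured on the same arrays, since most claudins are made by epithelial cells. Of 13 epithelial markers 0 passed the test and 10 had a higher null mean, with a median difference of 0.30. By non-overlap 23.1% of them were higher and 7.69% lower, beside 20.0% and 6.67% of the tested members. The higher share was thus not particular to the members. The mean of the list was higher by 0.18, 0.31 and 0.65 on null arrays 1 to 3, and lay at −0.32, 0.10 and 0.22 on the heterozygous arrays. Krt19, Cdh1 and Epcam had differences of 1.15, 0.84 and 1.06 (limma adjusted p = 0.280, 0.308 and 0.444), all with null arrays wholly above heterozygous ones, while the simple keratin Krt18 had one of −0.50 (limma adjusted p = 0.633), with null arrays wholly below. Of 7 basal urothelial markers 0 passed and 7 had a higher null mean, the largest difference being that of Lama3 at 1.23 (limma adjusted p = 0.114). By non-overlap 57.1% of these 7 were higher.

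Each member was then set against the mean of the epithelial list on the same array. Cldn7 stood 1.91, 1.64 and 1.14 above that mean on the null and 0.89, 0.81 and 0.93 on the heterozygous arrays, so its groups stayed apart, with a difference of 0.69. Tjp3 also stayed apart, with a difference of 0.57, as did Cldn2 with 3.27. The groups of Ocln, Cldn18 and Tjp1 overlapped on this scale, with differences of 0.64, 1.12 and −0.10. In the lower direction Cldn5, Cldn6 and Cldn8 had separate groups among tested claudins, with differences of −1.36, −1.56 and −1.21, and Cgnl1 and Pard3 among partners, with −0.66 and −0.93. On this scale 10.0% of the 30 tested members were separate in the higher and 16.7% in the lower direction, beside 1.15% and 24.2% of all genes tested, since subtracting a mean that is higher in null bladders moves each gene down. The lower share was thus below that of all genes, and the lower separations are no result about the members. Cldn2, 1 of the 3 higher members, had to differ to pass the filter. No share on this scale was taken for the epithelial or basal markers, so the higher share is not read as particular to the members. These values depend on the 13 markers chosen, and the part of epithelial content in the members' values was not tested.

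**Figure D4:**
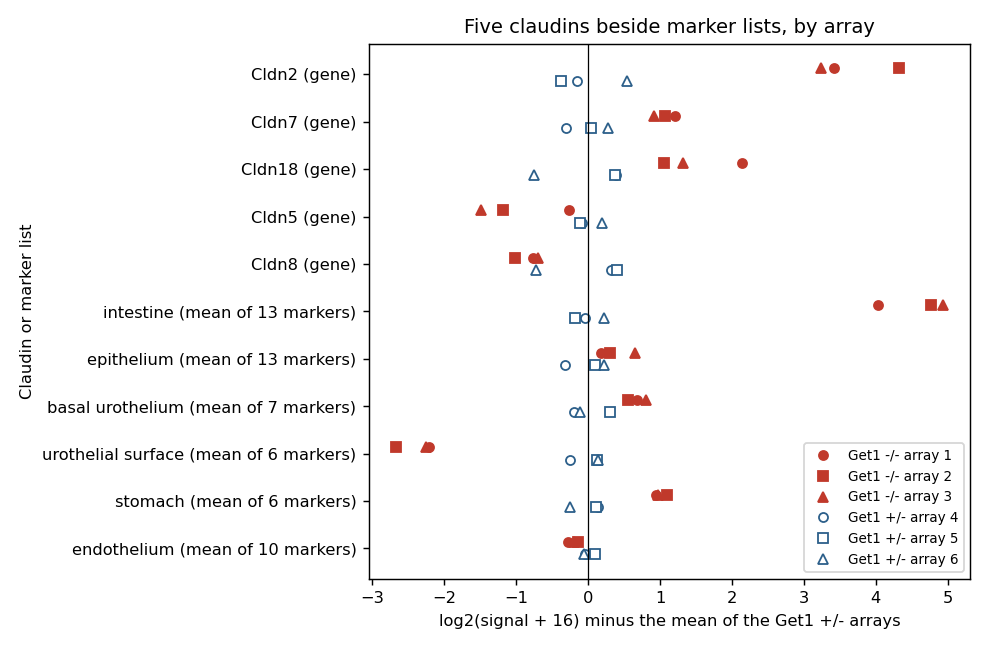
Level on each array minus the heterozygous mean, on the log2(signal + 16) scale, for 5 claudins and for the means of 6 marker lists, with null arrays as filled red and heterozygous arrays as open blue symbols. Cldn2 and the intestinal markers lie far to the right on the 3 null arrays and the urothelial surface markers far to the left, while Cldn7 lies at smaller positive values on the 3 null arrays.

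Of 40 further genes of tight junctions and their polarity complexes 33 were matched to a probe set and 30 were tested, of which 0 were called in either direction. Their median difference was −0.01. By limma's unadjusted p under 0.05, 1 was higher and 2 were lower (3.33% and 6.67%, beside 3.63% and 4.30% of all genes tested). Cxadr, which encodes a junction adhesion protein that is also the coxsackievirus receptor, read 423, 448 and 569 in null bladders against 271, 341 and 234 in heterozygous ones, a difference of 0.74 (limma adjusted p = 0.435). Rab13, a GTPase that carries occludin and claudins to the junction, had signals of 815, 795 and 698 against 988, 1428 and 1305, a difference of −0.66 (adjusted p = 0.502). Lin7a, a partner of the Crumbs complex, had a difference of −0.64 and Pard6g, a relative of Pard6b, one of −0.44 (limma adjusted p = 0.521 and 0.708). In each of these 4 genes the groups did not overlap. The same held for Prkci and Amot, with differences of 0.47 and −0.41 (limma adjusted p = 0.746 and 0.767). By non-overlap 6.67% of the 30 were higher and 13.3% lower, beside 6.07% and 7.36% of all genes tested. Lsr, which encodes angulin-1 at tricellular contacts, had a difference of 0.96 with a heterozygous SD of 1.23 (adjusted p = 0.752). The unmatched genes of this list were not analysed here.

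Probe sets of the same gene were compared last. The 34 members had 73 probe sets, and 19 members had several. Of the 39 probe sets that were not the brightest, 29 lay below the level of the dim filter. Of the 10 above it, 7 had a difference of the same sign as the brightest one. Cldn3, Cldn12, Magi3 and Pard3 were among the genes whose brighter probe sets pointed the same way, and Ocln, Cgnl1 and Mpdz had one that did not.

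**Figure D5:**
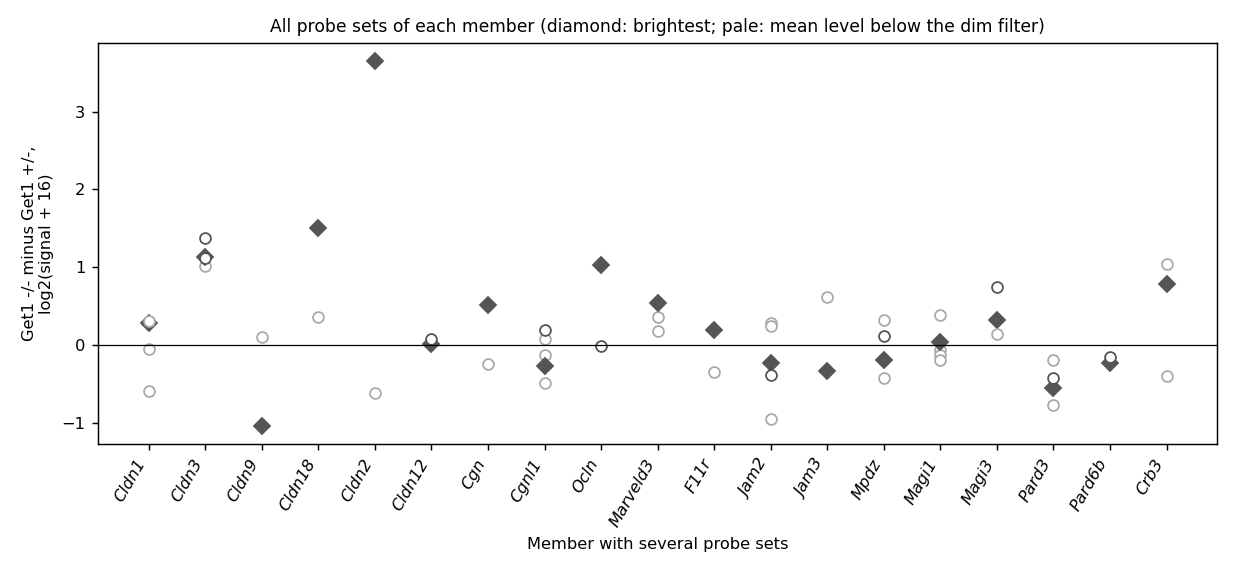
Null minus heterozygous difference on the log2(signal + 16) scale for every probe set of the 19 members with several, with the brightest as a diamond and pale symbols for a mean level below the dim filter of 5.80. The 4 Cldn3 probe sets lie together at 1.01 to 1.37, while the dim second probe set of Cldn2 lies at −0.62 and the second one of Ocln, which is above the filter, at −0.01.

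The remaining lists mark other cell types of the bladder wall. Of 7 smooth muscle, 6 stromal, 4 glial, 5 mesothelial and 5 immune genes tested 0 were called in either direction, with median differences from −0.19 to 0.24. The genes with the smallest p in each were Des (0.80), Dpt (−0.76), Mbp (0.89), Msln (1.70) and Csf1r (−0.68), with limma adjusted p of 0.281, 0.480, 0.568, 0.353 and 0.801. All 7 smooth muscle genes had a higher null mean, and 42.9% of them had null arrays wholly above heterozygous ones. The mean of that list was higher by 0.44, 0.31 and 0.25 on null arrays 1 to 3. In the urothelial surface list Snx31, Upk2 and Psca were lower, with differences of −5.58, −3.03 and −2.25 (limma adjusted p = 3.36e-04, 0.00223 and 0.0445).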

How the data were processed

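Total RNA of 6 bladders was measured on Affymetrix arrays. The authors deposited a linear intensity for each probe set. Per the submitters' processing notes these came from PLIER 2.0 in Affymetrix Expression Console 1.1, and the sources used here do not state the background step or normalization. Upper quartiles of the signal were 334 to 370 over the arrays, and the number of arrays limits the precision. Of 45101 probe sets 64 were controls, and 34945 others had 1 gene symbol in the platform annotation, 932 several and 9160 none. Values were taken as log2(value + 16), per gene from the brightest probe set, and genes with a mean under 5.80 (the dimmest 30%) were left out. The genotypes were tested by lmFit and eBayes of limma 3.58.1 (R 4.3.3), two-sided, with Benjamini-Hochberg adjustment over 12735 genes and a threshold of 0.05. The deposited intensities became log2 values before this test. The script was tested on simulated data. Members, roles and lists (40 other junction genes, 11 marker lists) were chosen with earlier results of these data known. Values on every array are given for members with an unadjusted p under 0.05, separate groups or among the 3 brightest, and for others where a result turned on single arrays, which was chosen after the values were seen. Of other junction genes and of marker lists, up to 4 with the smallest p were named, and a few more after their values were seen. Alternatives were other offsets (1 and 64), normalization, probe set choice, filters, weights, variance model and each array left out.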

Additional observations from a re-analysis of the deposited data

How the results depend on the processing

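Of the 30 tested members, Cldn2 was called higher in each of the 15 alternative fits that tested it (differences from 1.52 to 5.45), and 0 of the other 29 were called in any. The count of claudins called higher was 1 in all fits but the one that left out the dimmest 50% of genes, where Cldn2 was not tested and the count was 0. That filter left 9 claudins and 14 partners tested, with medians of −0.31 and −0.082. Probe sets without an x or s suffix left 14 partners tested, with a median of −0.0039. The members still tested in these lists kept their main differences, so the medians moved with the genes left out. With 1 array left out the claudin median ranged from −0.30 (without null array 1) to 0.029 (without heterozygous array 5), and the partner median from −0.10 (without heterozygous array 4) to 0.18 (without null array 2). Some differences changed sign in the alternative fits, most of them near 0 but also larger ones such as Marveld2 at −0.44 and Jam3 at −0.33. With probe sets averaged, Cldn1 had −0.0088, F11r −0.078 and Jam3 0.14, and with array weights Cldn4 had 0.11 and Cldn10 −0.11. With 1 array left out, the differences ranged from −0.020 to 0.59 for Cldn1, −0.58 to 0.23 for Cldn4, −0.13 to 0.59 for Cldn10, −0.14 to 0.21 for Cldn12, −0.82 to 0.067 for Marveld2, −0.033 to 0.44 for F11r, −0.19 to 0.18 for Magi1 and −0.44 to 0.16 for Pard6b. Over all genes, 57 were called higher and 8 lower, against 35 and 5 with an offset of 1, 38 and 5 without the dimmest 50%, and 37 to 57 and 5 to 9 with 1 array left out. No paired analysis was possible because the titles give null arrays the numbers 1 to 3 and heterozygous arrays 4 to 6. Dim probe sets, such as those of Cldn2 on heterozygous arrays, give a level near the floor and not a measured amount.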

Other observations

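Wt1, a transcription factor of mesothelium and of the embryonic gonad and kidney, read 506, 1585 and 1553 in null bladders against 1588, 2941 and 4106 in heterozygous ones, a log2 difference of −1.30 (limma adjusted p = 0.583). Null array 1 was the lowest and heterozygous array 6 the highest of the 6, as they were for Cldn9 and Cldn11. Msln, another mesothelial gene, read 570, 583 and 578 in null bladders against 62.4, 268 and 257 in heterozygous ones, so the mesothelial markers did not share 1 order of arrays. Over the 30 tested junction members the highest signal lay on heterozygous array 6 in 10 and on null array 1 in 7, and the lowest on heterozygous array 4 in 10 and on null array 1 in 6.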
